A study of Mus musculus with 6 samples.

Results

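Amino acid and peptide transporters were followed in the epithelium and the mesenchyme of the small intestine of mouse embryos. The set held 10 genes: the peptide carrier Slc15a1, the apical amino acid carriers Slc6a19, Slc6a20a, Slc6a14 and Slc1a1, the apical pair Slc3a1 and Slc7a9, and the basolateral subunits Slc3a2, Slc7a7 and Slc7a8. Every probe set whose platform symbol equalled one of these names was taken, which gave 15 of 45037 probe sets, for 10 of 18161 named genes. No probe set with several symbols included any of them.

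The enterocyte, the absorptive cell of the gut, takes up dietary protein as free amino acids and as short peptides. Carriers in the apical (brush border) membrane bring them in, driven by sodium or protons or by exchange, and carriers in the basolateral membrane pass them to the blood. Several of these carriers are heteromers, in which a glycosylated heavy chain of the Slc3 family brings a transporting light chain of the Slc7 family to the membrane. Before birth the gut receives swallowed amniotic fluid, and these carriers meet milk protein only after birth.

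Each tissue was measured on 3 Affymetrix mouse genome expression arrays, labelled A, B and C, and each array carried total RNA of a pool from 3 embryos of C57BL/6 females at E18.5 (E for embryonic day), with no genotype or treatment that differed between groups. The whole small intestine was opened and left for 9 hours at 4 °C in Cell Recovery Solution, after which the loosened epithelium and the bare mesenchyme were pooled apart. From 6 pools per tissue, 3 had been picked by RT-PCR for low signal of the other tissue's transcripts, so the spread between arrays is that of selected pools. The mesenchyme here is everything left after the epithelium came off, including muscle, vessels, nerves and blood cells. With bulk RNA, fewer cells of a type and less RNA per cell cannot be told apart.

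All values are log2 expression values (RMA, the authors' processing) rounded to 0.1. Levels are given per array or as mean ± SD (n = 3). A difference is the epithelial minus the mesenchymal log2 mean, followed by the standard error that limma gave when fitted over all probe sets. A probe set or gene is called at a Benjamini-Hochberg adjusted p under 0.05 together with a difference of at least 1 (2-fold). A gene is represented by its brightest probe set. The table has no detection calls, and the 27 probe sets for transcripts of bacteria, which mouse RNA should leave near background, had array means from 5.87 to 6.25 and single values from 4.9 to 8.3. Array medians ran from 8.1 to 8.7, the spike-in controls averaged 9.80 on mesenchyme B and 10.56 to 10.77 on the other arrays, and the median difference over all genes was -0.17. The labels of the tissues matched their markers. All 8 epithelial markers (Vil1, Epcam, Cdh1, Cdh17, Cldn7, Krt8, Krt18 and Krt20) were higher in the epithelium, all 10 of smooth muscle and fibroblasts and all 6 of endothelium were higher in the mesenchyme, and the epithelial list averaged 13.04 to 13.49 on the epithelial arrays and 8.56 to 9.30 on the mesenchymal ones.

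Of the 10 transporter genes, 8 were higher in the epithelium, none was higher in the mesenchyme (limma, none also at an unadjusted p under 0.05), and Slc6a14 and Slc1a1 did not pass. Over all genes tested, 24.1% were called, 8.2% as higher in the epithelium and 15.9% as higher in the mesenchyme. These shares depended on the scaling. With equal medians 23.3% were called, 11.8% as higher in the epithelium. The same values were 22.5% and 10.6% with quantile normalization, 22.1% and 9.87% with cyclic loess, and 27.6% and 6.21% with spike-in centring. By probe set, 10 of 15 were higher in the epithelium, against 5.98% of all probe sets. The lowest epithelial array lay above the highest mesenchymal one in 10 of 15, against 12.4% of all probe sets. These were the same 10, so the counts are not separate results. The median difference of the 10 genes was 2.87. The apical carriers Slc3a1, Slc7a9 and Slc6a20a, with differences of at least 5, were among 39 such genes (0.215% of those tested). All 8 calls held with quantile normalization, cyclic loess, equal medians and spike-in centring, and with any 1 array left out.

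**Figure D1:**
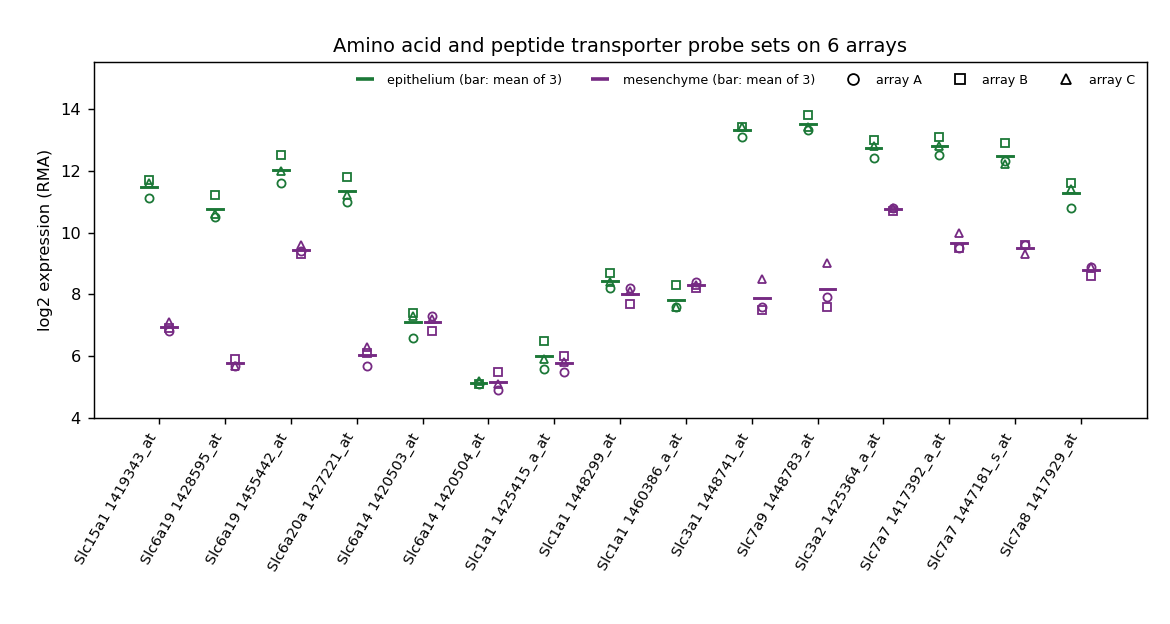
Log2 expression of the 15 probe sets of the 10 transporter genes on 6 arrays, with green for epithelium, purple for mesenchyme, marker shapes for arrays A, B and C, and bars for the mean of 3 arrays. For 10 probe sets the tissues are apart, and for the 5 of Slc6a14 and Slc1a1 the arrays overlap.

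Slc15a1 (PepT1, probe set 1419343_at) is the proton-coupled carrier that takes di- and tripeptides from the lumen. It stood at 11.1, 11.7 and 11.6 on epithelium A, B and C and at 6.8, 6.9 and 7.1 on mesenchyme A, B and C. The mesenchymal values lay within the range of the bacterial controls, and every epithelial array was at least 4.0 above every mesenchymal one. The difference was 4.53 ± 0.23 (adjusted p = 1.59e-18 over genes, limma). Since the mesenchymal level was not told from background, the 23.2-fold that this gives is to be read as a lower bound.

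Slc6a19 (B0AT1), the sodium-coupled carrier of neutral amino acids, was read by 2 probe sets that gave different sizes. By the brighter, 1455442_at, it was at 11.6, 12.5 and 12.0 in the epithelium and at 9.4, 9.3 and 9.6 in the mesenchyme, a difference of 2.60 ± 0.24 or 6.06-fold (adjusted p = 1.47e-11, limma). By 1428595_at it was at 10.5, 11.2 and 10.6 in the epithelium and at 5.7, 5.9 and 5.7 in the mesenchyme, a difference of 5.0 ± 0.24 that is a lower bound, since these mesenchymal values lay within the range of the bacterial controls. The direction was the same, but the mesenchymal level was 9.43 ± 0.15 by the first and 5.77 ± 0.12 by the second, and the mean of both gave a difference of 3.80. Which transcripts each probe set reads was not tested.

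Slc6a20a (SIT1, 1427221_at), the carrier of proline and other imino acids, was at 11.0, 11.8 and 11.2 in the epithelium and at 5.7, 6.1 and 6.3 in the mesenchyme. The mesenchymal values lay within the range of the bacterial controls, so that the difference of 5.30 ± 0.24 (39.4-fold, adjusted p = 7.73e-20, limma) is to be read as a lower bound. The tandem copy Slc6a20b showed no such pattern by its brighter probe set, with 8.0 ± 0.26 in the epithelium and 8.0 ± 0.10 in the mesenchyme. By its other, 1436667_at, the epithelial arrays lay above without overlap, but the difference of 0.40 was not called. Neither probe set exceeded the highest bacterial control on any array, so weak expression cannot be told from none. Slc6a18, the third apical carrier of this branch, known mainly from kidney, was at 8.07 ± 0.12 and 8.1 ± 0.46, a difference of -0.03 (adjusted p = 0.917, limma). Of its values, only that of mesenchyme C, 8.6, lay above the highest bacterial control on any array.

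Slc3a1 (rBAT) and Slc7a9 (b0,+AT) together form the apical exchanger for cystine and the cationic amino acids lysine, arginine and ornithine, the system that is defective in cystinuria. Slc3a1, the heavy chain (1448741_at), was at 13.1, 13.4 and 13.4 in the epithelium and at 7.6, 7.5 and 8.5 in the mesenchyme. Slc7a9, the light chain (1448783_at), was at 13.3, 13.8 and 13.4 in the epithelium and at 7.9, 7.6 and 9.0 in the mesenchyme. In both, mesenchyme C was the high array of its tissue, by 0.9 or more for Slc3a1 and 1.1 or more for Slc7a9. The differences were 5.43 ± 0.25 for Slc3a1 (43.2-fold) and 5.33 ± 0.27 for Slc7a9 (40.3-fold), ranks 18 and 23 of all genes (adjusted p = 6.76e-20 and 9.80e-19, limma). Mesenchyme A and B lay within the range of the bacterial controls for both genes and mesenchyme C above it, so that these folds may be too low.

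The 250 bases before the annotated start are shown for the apical pair and for the basolateral pair Slc3a2 and Slc7a7, since these subunits work as partners and both pairs were higher in the epithelium, by different amounts. Sequences are from RefSeq, build GRCm38.p6, 5′ to 3′ on the strand of the gene, and capitals mark matches to the motifs named below. Where a gene has several starts, the first in the table is shown.
Slc3a1, chr17:85028097-85028346, plus strand: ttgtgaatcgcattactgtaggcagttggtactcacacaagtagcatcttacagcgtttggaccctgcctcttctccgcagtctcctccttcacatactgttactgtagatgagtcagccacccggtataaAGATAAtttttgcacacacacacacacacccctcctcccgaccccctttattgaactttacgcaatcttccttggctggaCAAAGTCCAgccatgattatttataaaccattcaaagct
Slc7a9, chr7:35448842-35449091, plus strand: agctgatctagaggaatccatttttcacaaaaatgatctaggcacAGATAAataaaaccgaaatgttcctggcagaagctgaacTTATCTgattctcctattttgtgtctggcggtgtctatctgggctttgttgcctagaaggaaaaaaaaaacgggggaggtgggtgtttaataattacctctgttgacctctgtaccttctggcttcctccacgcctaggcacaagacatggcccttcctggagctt
Slc3a2, chr19:8713898-8714147, minus strand: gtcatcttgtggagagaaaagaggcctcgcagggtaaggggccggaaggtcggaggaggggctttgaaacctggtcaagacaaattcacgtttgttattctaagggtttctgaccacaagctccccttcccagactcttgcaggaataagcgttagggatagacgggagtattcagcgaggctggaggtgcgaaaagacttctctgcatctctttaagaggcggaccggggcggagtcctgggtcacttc
Slc7a7, chr14:54417945-54418194, minus strand: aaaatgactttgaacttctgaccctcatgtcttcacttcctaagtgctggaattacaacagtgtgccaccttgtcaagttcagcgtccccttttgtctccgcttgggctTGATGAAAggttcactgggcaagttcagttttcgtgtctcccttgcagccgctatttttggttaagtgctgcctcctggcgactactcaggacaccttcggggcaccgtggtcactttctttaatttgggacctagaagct

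Windows from 250 bases before to 50 after the start were searched on both strands for 4 motifs, and all 10 genes had a window. The HNF4 motif CAAAGTCCA lay in the Slc3a1 promoter at -39 to -31 from the start and in that of no other of the 10 genes, and it was found in 0.475% of 32851 windows (0.555% of 27025 genes). The GATA motif AGATAA lay in a window of 3 of the 10 genes, Slc3a1 (-119 to -114), Slc7a9 (-205 to -200, and reversed at -166 to -161) and Slc7a7 (at the second and the third of its 5 starts), and of 12.7% of all genes. The ATF4-C/EBP motif TGATGNAA was found at Slc7a7 alone among the 10, at -141 to -134 and again across the start, and in 4.51% of genes. The CDX motif TTTATG, found in 13.6% of genes, was in none of these windows. The windows of Slc3a2, Slc15a1, Slc6a19, Slc6a20a, Slc1a1, Slc7a8 and Slc6a14 held no match to any of the 4. A match describes letters and not binding.

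Slc6a14 (ATB0,+) carries neutral and cationic amino acids with sodium and chloride and is known in the adult mainly from colon and lung. By 1420503_at it was at 6.6, 7.4 and 7.3 in the epithelium and at 7.3, 6.8 and 7.2 in the mesenchyme, and by 1420504_at at 5.1, 5.1 and 5.2 and at 4.9, 5.5 and 5.1. The tissues overlapped by both, and all values were within the range of the bacterial controls. The difference was 0.00 ± 0.24 by the brighter probe set, with a 95% interval from -0.49 to 0.49 that leaves out a 2-fold difference in these values. Signal this low cannot separate weak expression from none.

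Slc1a1 (EAAC1, EAAT3), the sodium-coupled carrier of glutamate and aspartate, was read by 3 probe sets that did not share a direction, and none passed. By 1448299_at it was at 8.2, 8.7 and 8.4 in the epithelium and at 8.2, 7.7 and 8.1 in the mesenchyme, a difference of 0.43 with a 95% interval from -0.04 to 0.91 (adjusted p = 0.142, limma). By 1460386_a_at it was at 7.6, 8.3 and 7.6 in the epithelium and at 8.4, 8.2 and 8.3 in the mesenchyme, a difference of -0.47 with an interval from -0.95 to 0.01. By the dim 1425415_a_at the levels were 6.00 ± 0.46 and 5.77 ± 0.25. The tissues overlapped in all 3, and their mean gave a difference of 0.07. By 1448299_at the difference depended on the scaling. It was 0.74 with quantile normalization, 0.66 with loess and 0.73 with equal medians (adjusted p = 6.72e-04, 0.00209 and 0.00193, limma), each short of 2-fold. With spike-in centring it was 0.17 (adjusted p = 0.748, limma). By 1460386_a_at it stayed below 0 under all scalings (-0.73 to -0.14), and was -0.70 without epithelium B (adjusted p = 0.00936, limma).

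**Figure D2:**
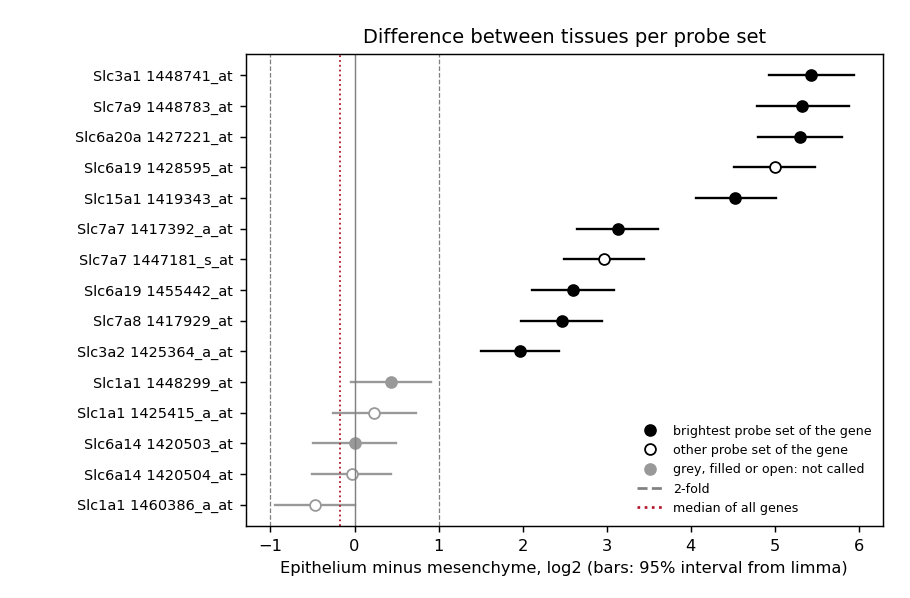
Difference between tissues (epithelium minus mesenchyme, log2) for each of the 15 probe sets, with the 95% interval from limma. Filled circles are the brightest probe set of a gene, open circles its others, grey marks those not called, dashed lines stand at 2-fold and the dotted line at the median of all genes, -0.17; the differences run from -0.47 (Slc1a1, 1460386_a_at) to 5.43 (Slc3a1).

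On the basolateral side, Slc3a2 (4F2hc, CD98), the heavy chain shared by many light chains and present on most dividing cells, had the smallest difference of the 8 called genes. By 1425364_a_at it was at 12.4, 13.0 and 12.8 in the epithelium and at 10.8, 10.7 and 10.8 in the mesenchyme. The tissues were apart, with 1.97 ± 0.23 between them (3.91-fold, adjusted p = 4.23e-09, limma), and the mesenchymal level of 10.77 ± 0.06 lay above the highest bacterial control on any array.

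Slc7a7 (y+LAT1) releases cationic amino acids into the blood in exchange for neutral ones and sodium, and is the gene of lysinuric protein intolerance. By 1417392_a_at it was at 12.5, 13.1 and 12.8 in the epithelium and at 9.5, 9.5 and 10.0 in the mesenchyme, a difference of 3.13 ± 0.24 (8.77-fold, adjusted p = 6.86e-14, limma). The second probe set, 1447181_s_at, gave 2.97 ± 0.24, so both placed the epithelium above by similar amounts. The mesenchymal array that stood high differed between them: mesenchyme C by the first and mesenchyme A and B, at 9.6 each against 9.3, by the second.

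Slc7a8 (LAT2), the exchanger that passes neutral amino acids out of the cell, was at 10.8, 11.6 and 11.4 in the epithelium and at 8.9, 8.6 and 8.9 in the mesenchyme by 1417929_at. The lowest epithelial array was 1.9 above the highest mesenchymal one, and the difference was 2.47 ± 0.24 (5.53-fold, adjusted p = 4.63e-11, limma).

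Partner genes were then compared within each array, so that a shift of a whole array cancels, in 5 pairs (exact permutation tests, two-sided, for which 3 arrays against 3 can give no p below 0.1, or 0.125 after adjustment over the pairs when 4 of them reach it). A value within an array is set against the same value in the other tissue, and not read as a ratio of the 2 genes. Slc7a9 minus Slc3a1 was 0.2, 0.4 and 0.0 on the epithelial arrays and 0.3, 0.1 and 0.5 on the mesenchymal ones, so that light and heavy chain of the apical exchanger shifted by amounts that differed by -0.10 (p = 0.7, adjusted 0.7, exact). Since mesenchyme A and B of both genes lay within the range of the bacterial controls, both shifts may be too low and their difference is uncertain. Slc7a7 minus Slc3a2 was 0.1, 0.1 and 0.0 on the epithelial arrays and -1.3, -1.2 and -0.8 on the mesenchymal ones, without overlap. The tissue difference of the light chain Slc7a7 exceeded that of its heavy chain by 1.17, and for Slc7a8 against Slc3a2 the value was 0.50, also without overlap. Both gave p = 0.1, adjusted 0.125 (exact), the lowest this design allows, which passes no threshold of 0.05.

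Between the heavy chains, Slc3a1 minus Slc3a2 was 0.7, 0.4 and 0.6 on the epithelial arrays and -3.2, -3.2 and -2.3 on the mesenchymal ones, a gap of 3.47 (p = 0.1, adjusted 0.125, exact). Slc6a19 minus Slc6a20a differed between tissues by -2.70 (p = 0.1, adjusted 0.125, exact). This last value rested on the choice of probe set for Slc6a19: with 1428595_at it was -0.30 (p = 0.4, exact), an alternative chosen after seeing the data. In the mesenchyme, Slc3a1 on arrays A and B, and Slc6a20a and Slc6a19 by 1428595_at on all arrays, lay within the range of the bacterial controls. The sizes of these gaps are therefore limited by background.

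The epithelial arrays differed among themselves in the same order for nearly all these genes. Of the 10 called probe sets, 9 were lowest on epithelium A and 9 were highest on epithelium B. The mean deviation from the tissue mean was -0.31 on epithelium A and 0.33 on epithelium B, beside -0.21 and 0.25 over all probe sets, and the array medians were 8.1 and 8.6. With quantile normalization the median SD of these probe sets in the epithelium went from 0.35 to 0.14. In the mesenchyme, 6 of the 10 were highest on mesenchyme C, with a mean deviation of 0.23 beside 0.04 over all probe sets.

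Mesenchyme C was also the array on which most epithelial markers were highest within the mesenchyme, 6 of 8, with Krt8 highest on mesenchyme A and Cdh1 equal on A and C. Their list averaged 8.95, 8.56 and 9.30 on mesenchyme A, B and C, and Vil1 was at 8.7, 8.1 and 9.2, Epcam at 9.5, 9.1 and 9.9. On the linear scale, Slc3a1 on mesenchyme A, B and C was 1.92%, 1.79% and 3.59% of its epithelial mean and Slc7a9 was 2.06%, 1.67% and 4.42%, while the median of the 8 epithelial markers was 4.18%, 4.13% and 6.70%. Slc15a1 (3.94% to 4.85%) and Slc6a20a (2.01% to 3.05%) were within the range of these markers, 1.10% to 12.5%. Slc3a2 (24.4% to 26.2%), Slc7a8 (15.7% to 19.4%) and Slc6a19 by 1455442_at (15.0% or more) lay above that range, Slc6a19 by 1428595_at (2.98% to 3.43%) lay within it, and the 2 probe sets of Slc7a7 (10.2% to 14.4%) spanned its upper end. In the mesenchyme, Slc15a1, Slc6a20a and Slc6a19 by 1428595_at lay within the range of the bacterial controls, so their shares are upper bounds. The same holds for Slc3a1 and Slc7a9 on mesenchyme A and B. Of the markers, Epcam and Krt8 lay above these controls on every mesenchymal array, whereas Cdh1 did not. The part of residual epithelium in the mesenchymal values was not tested.

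**Figure D3:**
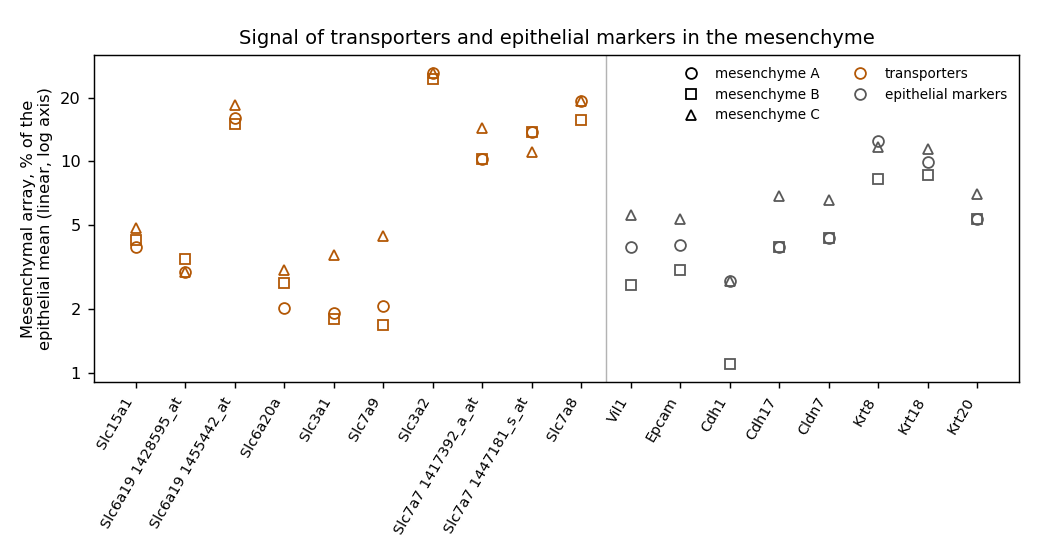
Signal on each mesenchymal array as a percentage of the mean of the 3 epithelial arrays (linear scale, log axis), for the 10 called transporter probe sets (orange) and 8 epithelial markers (grey). Slc3a2 at 24.4% to 26.2% stands highest, Slc3a1 and Slc7a9 lie at 1.67% to 4.42%, and the triangles of mesenchyme C are the highest for both.

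For each transporter, the gene outside the lists used here with the most similar pattern was found as the one with the smallest root mean square difference over the 6 arrays after each was centred on its own mean, among 16192 genes without clone names. The order within a tissue of 3 arrays weighs little in this measure beside the size of the difference. For Slc7a7 it was Isx, an intestinal homeobox gene, at 0.05. For Slc15a1 the chloride channel gene Cftr and the glucose carrier gene Slc5a1 tied at 0.08, and for Slc6a20a it was Tmem30b at 0.07. The nearest of Slc3a1 and Slc7a9 were less close, Leap2, an antimicrobial peptide gene, at 0.16 and Reep6 at 0.11. F9 was nearest to Slc6a19 (0.07) and, tied with Lrat, to Slc7a8 (0.09). Gal3st2, Itgb4 and Mien1 tied for Slc3a2 at 0.05, Heatr5b, Socs3 and Zfp593 tied for Slc1a1 at 0.05, and Miga1 was nearest to Slc6a14 at 0.05.

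Other amino acid and peptide carriers were read as a list. Of 47 listed genes, 45 were measured. Of these, 9 (20%) were called as higher in the epithelium, against 8.2% of all genes. Another 8 were called as higher in the mesenchyme, near the share over all genes (15.9%), and 28 in neither. The median difference of the 45 was -0.17, equal to that of all genes. The higher ones in the epithelium included the further basolateral carriers Slc16a10 and Slc43a2. Slc16a10 (TAT1), which lets aromatic amino acids out, was at 11.5, 12.2 and 11.7 in the epithelium and at 9.1, 8.8 and 9.1 in the mesenchyme, a difference of 2.80 ± 0.24, and 2 more of its 4 probe sets were called the same way. Slc43a2 (LAT4), a facilitated carrier of large neutral amino acids, differed by 2.30 ± 0.23, with all 3 probe sets called. Of the others called as higher in the epithelium, Slc38a6 differed by 2.07 and Slc38a7 by 1.53. A second, dimmer probe set of Slc38a6, 1440099_at, gave 0.73 with overlapping arrays and was not called.

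The kidney-type peptide carrier Slc15a2 was higher in the epithelium by 1.43 by its brightest probe set, 1447808_s_at, whereas its other 2 probe sets, at 0.37 and 0.77, were not called. Carriers higher in the mesenchyme were led by Slc38a4, a carrier of neutral amino acids that is imprinted in mouse, which was at 6.3, 6.7 and 6.5 in the epithelium and at 10.0, 9.9 and 9.9 in the mesenchyme. Its difference was -3.43 ± 0.23, and -4.67 by a second probe set. Slc7a2, a cationic carrier, differed by -2.53, though 2 of its 4 probe sets were not called and 1 of them lay at 0.20. Slc15a3, a lysosomal peptide carrier of immune cells, differed by -2.53, and the neuronal carrier Slc6a15 by -2.40. The epithelial values of Slc38a4, Slc7a2, Slc15a3 and Slc6a15 lay within the range of the bacterial controls. Their sizes are therefore to be read as lower bounds, and their order is uncertain. Blood and immune markers moved the same way, 4 of 5 measured being higher in the mesenchyme with list means of 8.12 to 8.76 on the epithelial and 11.32 to 11.54 on the mesenchymal arrays, and so did 2 of 4 enteric nerve and glia markers. Their part in these values was not tested.

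Slc38a2 (SNAT2), a sodium-coupled carrier of small neutral amino acids found in most cells, was higher in the mesenchyme, with -1.93 ± 0.23 and levels of 10.13 ± 0.15 and 12.07 ± 0.15, although the dimmest of its 3 probe sets, at -0.70, was not called. Slc7a5 (LAT1), the partner of Slc3a2 in proliferating cells, differed by -0.33 (adjusted p = 0.259, limma), and its epithelial arrays at 9.3, 9.6 and 9.7 lay just below the mesenchymal ones at 9.9, 9.9 and 9.8. Slc7a6 (y+LAT2), the widely expressed relative of Slc7a7, differed by -0.80 (adjusted p = 0.00362, limma), short of 2-fold; its second probe set, at -1.13, was called as higher in the mesenchyme, and so was the gene under spike-in centring. Slc7a1, the general cationic carrier, differed by -0.43 and Slc1a5, a carrier of glutamine, by -0.13, and neither was called. The call of Slc43a3, at -1.0, ended under quantile normalization, loess and equal medians, and also without epithelium A (-0.82), epithelium C (-0.87), mesenchyme A (-0.88) or mesenchyme B (-0.98). That of Slc38a1, at 1.20, ended under spike-in centring (0.94), and its other probe set, at 0.67, was not called.

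**Figure D4:**
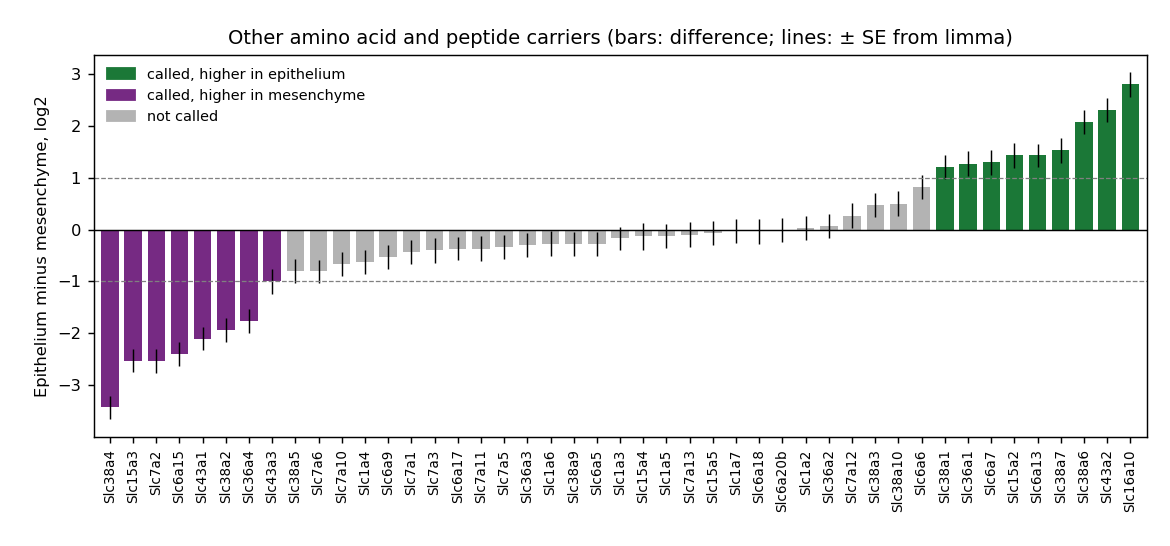
Difference between tissues (epithelium minus mesenchyme, log2) of the 45 other amino acid and peptide carriers by their brightest probe sets, with the standard error from limma and dashed lines at 2-fold. Green bars are the 9 called as higher in the epithelium, purple bars the 8 called as higher in the mesenchyme, and grey bars the 28 not called.

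Genes that serve these carriers were read next. Of 10 listed for partner proteins and ion gradients, 7 were measured, with a median difference of 2.77. Of these, 5 were higher in the epithelium and 1 in the mesenchyme, against 8.2% and 15.9% of all genes. Slc9a3 (NHE3), the apical sodium-proton exchanger that restores the proton gradient used by Slc15a1, was at 11.6, 12.0 and 11.8 in the epithelium and at 7.5, 7.4 and 8.1 in the mesenchyme, a difference of 4.13 ± 0.24, although a second, dimmer probe set gave 0.60 and was not called. The scaffold genes Pdzk1 and Slc9a3r1 differed by 3.80 and 2.77. Cltrn (collectrin), which carries Slc6a19 and its relatives to the membrane in kidney, was at 8.1, 9.4 and 8.4 in the epithelium and at 5.3, 5.8 and 5.7 in the mesenchyme, a difference of 3.03 ± 0.26. The mesenchymal values of Slc9a3 and Cltrn lay within the range of the bacterial controls, so both differences are to be read as lower bounds. Among subunits of the sodium pump, Atp1b1 was higher in the epithelium by 2.07 and Atp1b3 was higher in the mesenchyme, at -1.40. The dimmest probe set of Atp1b1, 1455949_at, gave 0.07 and was not called, whereas its others, at 2.37, 2.87 and 3.13, were called.

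Peptidases that produce the substrates of the carriers were higher in the epithelium in 12 of 15 measured genes, with none higher in the mesenchyme (limma, none also at an unadjusted p under 0.05) and a median difference of 2.13; over all genes these shares were 8.2% and 15.9%. By their brightest probe sets, the brush border enzymes Mme (5.77 ± 0.24), Mep1b (5.33 ± 0.25), Naaladl1 (4.10) and Mep1a (3.90) had the largest differences. This order depended on the probe set. Other probe sets gave 3.83 for Mme, 5.33 for Mep1a and 0.80 to 4.23 for Dpp4. The mesenchymal values of Mme, and those of Mep1b on mesenchyme A and B, lay within the range of the bacterial controls, so their sizes may be too low. Enzymes that split dipeptides inside the cell were also in this group, with 3.20 for Cndp2, 1.47 for Lap3 and 1.20 for Pepd, which was not called under spike-in centring. The dipeptidase gene Dpep1, at 0.90, was called as higher in the epithelium without epithelium A (1.07) and under quantile normalization, loess and equal medians. All 7 measured intestinal transcription factors were higher in the epithelium, against 8.2% of all genes, with a median difference of 3.00. Among them were Gata6 (3.63), Hnf4g (3.27), Cdx1 (3.23) and Hnf4a (3.00), factors of the kind whose motifs were searched above. The mesenchymal values of Hnf4g and Cdx1 lay within the range of the bacterial controls, so these sizes are to be read as lower bounds. The size depended on the probe set, from 1.63 to 6.03 over the 4 of Hnf4a, from 3.27 to 5.60 over the 3 of Hnf4g and from 1.03 to 3.63 over the 3 of Gata6, and each of these probe sets was called.

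Genes of the amino acid response, the programme by which ATF4 raises carriers and synthetic enzymes when amino acids run short and of which Slc3a2 is a known target, were also read. Of 12 measured, none was called as higher in the epithelium (limma, 3 at an unadjusted p under 0.05), against 8.2% of all genes. Psat1, an enzyme of serine synthesis, was higher in the mesenchyme (-1.77), against 15.9% of all genes. At an unadjusted p under 0.05 (limma), 4 genes were higher in the mesenchyme, Psat1 included. In all, 11 genes did not pass, and the median difference was 0.25. Trib3 was not called by its brighter probe set, at -0.47, but was called as higher in the mesenchyme by its other, at -1.37. Phgdh, the first enzyme of serine synthesis, depended on the probe set: its brightest gave 0.87 and was not called, while its other 3, at 1.0, 1.67 and 1.70, were called as higher in the epithelium, as was the mean of all 4 (1.31). Atf4 itself was at 12.1, 12.4 and 12.1 in the epithelium and at 12.2 on each mesenchymal array, a difference of 0.00. Under quantile normalization Ddit3 and Sesn2 were called as higher in the epithelium, and with equal medians Phgdh as well. Under spike-in centring Eif4ebp1 was called as higher in the mesenchyme (-1.06).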

How the data were processed

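RNA of 3 epithelial and 3 mesenchymal pools was measured on 6 arrays. The authors deposited a table of log2 values, 1 per probe set and array; the submitters' processing notes name RMA, and how arrays were scaled to each other is not given in the sources used here. Array medians differed (8.1 to 8.7), so some shifts of whole arrays remain. The table has 45101 probe sets. Leaving out 64 controls, 34945 had 1 symbol in the platform annotation, 932 several and 9160 none. Symbols were updated through RefSeq gene names (GRCm38.p6). Epithelium and mesenchyme were compared with limma 3.58.1 (R 4.3.3; lmFit, eBayes) on all 6 arrays with no further scaling, adjusted over all 45037 probe sets or over 18161 genes. With 4 residual degrees of freedom and 31.7 from the prior, standard errors are drawn towards a spread shared by all probe sets. It was tested on simulated data. The simulated noise was independent between probe sets and held no shifts of whole arrays, unlike these data. The number of arrays limits precision. The p-values rest mostly on this shared spread, here between selected pools, and their size depended strongly on the fit. For Slc3a1 the adjusted p (limma) was 6.76e-20. It was 4.51e-08 with quantile normalization, 1.21e-06 with a block for the letters and 3.14e-74 without epithelium C. Equal array letters were not treated as pairing the tissues. Named were the 10 members, up to 4 called genes per list and direction, carriers that share a transport system with a member, and the nearest gene to each member; further genes named were chosen after their values were seen. Members, lists and motifs were chosen with earlier results of these data known. Alternatives were 4 scalings, a filter on dim probe sets, an intensity trend, other call rules, a block for the letters, arrays left out singly and other choices of probe set.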

Additional observations from a re-analysis of the deposited data

How the results depend on the processing

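The count of 8 called transporter genes, all higher in the epithelium, held with quantile normalization, cyclic loess, equal medians, spike-in centring, the intensity trend, the filter on dim probe sets, both choices of probe set and each array left out (8 to 8). With a minimum difference of 2, Slc3a2 (1.97) was no longer called. The scalings shifted the median of all genes by 0.27 (quantile), 0.21 (loess), 0.30 (equal medians) and -0.26 (spike-in), and the differences of the 8 genes moved with them, from 1.71 to 2.27 for Slc3a2 and from 5.17 to 5.73 for Slc3a1. The dim 1420504_at of Slc6a14 (-0.03) changed sign with quantile normalization (0.12), loess (0.12), equal medians (0.27) and without mesenchyme B (-0.17 to 0.13 over arrays left out), and 1425415_a_at of Slc1a1 (0.23) with spike-in centring (-0.03) and without epithelium B (-0.02 to 0.43 over arrays left out); neither was called under any of these. The filter on dim probe sets left Slc6a14 and Slc1a1 untested. Of the other carriers, 17 were called, 11 with dim probe sets left out (27 genes tested), 8 with a minimum difference of 2, and 16 to 17 with an array left out. The pair difference of Slc7a8 and Slc3a2 was 0.50, and 0.68 after quantile normalization, and that of Slc6a19 and Slc6a20a was -2.70, and -0.30 by 1428595_at; the cause was not tested. Arrays of the same letter did not deviate together (correlations of -0.31, -0.15 and 0.12 for A, B and C), and the replicate block left 8 transporter genes and 17 other carriers called. Without detection calls, values near the bacterial controls give no more than an upper bound on a level.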
